A study of Mus musculus with 30 samples.

Results

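Cd40, Cd80, Cd86, Icosl, Tnfsf9, Cd274 and Pdcd1lg2 encode surface proteins with which an antigen presenting cell drives or restrains T cells. Their rows were taken by gene symbol from the deposited count table, 7 of 30538 genes, and all 7 held enough counts to be tested. The libraries are polyA RNA sequencing of bone marrow derived macrophages, macrophages grown from mouse marrow precursors, from 3 C57BL/6 wild-type and 3 Ch25h-/- mice. Wild-type macrophages received no compound, or 18 h of 25-hydroxycholesterol (25HC, 5 µM), the antifungal azole itraconazole (1 µM) or the plant saponin OSW-1 (0.3 µM), agents the series groups as ligands or inhibitors of the oxysterol binding protein OSBP. Ch25h-/- macrophages, which lack the enzyme that makes 25HC from cholesterol, were not given a compound. Each of these 5 conditions was collected either unstimulated, with a stimulation time of 0, or after 18 h with lipopolysaccharide (LPS, 10 ng/mL), which gives 10 groups of 3 libraries. No vehicle is named for untreated cells and the age of the mice is not given. The labels do not say whether compounds stayed on during LPS, and the hours in culture with LPS cannot be told apart from LPS itself.

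A T cell that recognizes antigen also reads costimulatory signals. CD80 and CD86 bind CD28, which promotes activation, and CTLA-4, which restrains it; ICOSL binds ICOS, and the product of Tnfsf9 binds CD137. PD-L1 and PD-L2, the products of Cd274 and Pdcd1lg2, bind the inhibitory receptor PD-1. CD40 works in the other direction, as the receptor by which CD40 ligand on T cells licenses the presenting cell. In macrophages LPS signals through TLR4, and several of these genes are known targets of NF-kB, interferon or both.

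Totals ran from 23656860 to 43922154 counts per library. In 20 libraries every count was even, in 9 (the Ch25h-/- libraries and those of OSW-1 plus LPS) 49.66 to 51.38% of counts above 0 were odd, and in 1 (unstimulated 25HC, mouse 3) 46.13% were. Comparisons of OSW-1 with LPS, or of Ch25h-/- cells, against the other groups therefore cross a difference in how the deposited counts came out, which cannot be told apart from those groups; dividing the even counts by 2 ended 1 of 74 member calls, given below. As a check of the genotype, Ch25h had 94, 86 and 46 counts in unstimulated untreated wild-type libraries and 7, 0 and 2 in Ch25h-/- libraries, and with LPS 40, 78 and 32 against 5, 3 and 0. These Ch25h counts were neither halved nor scaled to library size, and the wild-type libraries among them held only even counts and had larger totals. All 9 macrophage markers exceeded 1 CPM (counts scaled to the library's normalized total) on average in every group, while the T cell genes Cd3d, Cd3e and Cd3g were at 0 in every wild-type LPS group. The wild-type mouse 3 library was the lowest of its group for 6 of 7 members in untreated cells with LPS, 6 of 7 with 25HC and LPS and 7 of 7 with itraconazole and LPS, but for 1 of 7 with OSW-1 and LPS. Replicates carry a mouse number and nothing further is stated, so p-values measure the spread between these libraries only. In bulk RNA, fewer cells of a type and less RNA per cell cannot be told apart.

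The 7 genes lie at 6 loci of GRCm38, with coordinates from GENCODE vM21. Cd274 (chr19:29367455-29388095, plus strand) and Pdcd1lg2 (chr19:29410919-29471161, plus strand) are neighbours with 22.8 kb between them. Cd80 (chr16:38455561-38496335, plus strand) and Cd86 (chr16:36603869-36666081, minus strand) share chromosome 16. Cd40 is at chr2:165055627-165072948, Icosl at chr10:78069302-78083913 and Tnfsf9 at chr17:57105325-57107757, each on the plus strand. Cd274, Pdcd1lg2 and Tnfsf9 overlap an annotated gene on the opposite strand (AC119228.1, A930007I19Rik and Gm11110). The strand setting of the counting is not given in the sources used here, so reads of these 3 genes and their antisense partners may be mixed.

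Promoters were held by RefSeq's table (GRCm38.p6) for 4 of the 7 members. They are shown because Cd80 and Icosl rose and Pdcd1lg2 fell when OSW-1 pretreatment preceded LPS; Cd274, the neighbour of Pdcd1lg2, was called lower there only in part of the analyses, as given below. Each run is the plus strand upstream of the annotated start; capitals mark a match to the NF-kB consensus or, in Cd80, to AP-1 (TGANTCA), with both strands searched. The windows are chr16:38458683-38458932 for Cd80, chr10:78069118-78069301 for Icosl, stopped where an annotated exon begins, chr19:29367188-29367437 for Cd274 and chr19:29410669-29410918 for Pdcd1lg2. For Cd80 the window precedes the RefSeq start, which lies inside the longer GENCODE gene span.
Cd80: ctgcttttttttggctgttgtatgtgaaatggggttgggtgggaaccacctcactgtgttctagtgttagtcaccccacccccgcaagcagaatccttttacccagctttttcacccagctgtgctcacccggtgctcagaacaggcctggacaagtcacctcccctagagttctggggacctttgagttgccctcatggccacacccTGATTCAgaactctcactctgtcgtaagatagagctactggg
Icosl: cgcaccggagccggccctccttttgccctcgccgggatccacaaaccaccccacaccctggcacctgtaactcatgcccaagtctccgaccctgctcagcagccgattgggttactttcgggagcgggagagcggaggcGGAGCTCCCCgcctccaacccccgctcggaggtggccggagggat
Cd274: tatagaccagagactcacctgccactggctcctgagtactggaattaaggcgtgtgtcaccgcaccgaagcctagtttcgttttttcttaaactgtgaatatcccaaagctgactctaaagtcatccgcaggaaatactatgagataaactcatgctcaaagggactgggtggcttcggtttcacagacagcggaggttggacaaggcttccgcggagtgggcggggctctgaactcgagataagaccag
Pdcd1lg2: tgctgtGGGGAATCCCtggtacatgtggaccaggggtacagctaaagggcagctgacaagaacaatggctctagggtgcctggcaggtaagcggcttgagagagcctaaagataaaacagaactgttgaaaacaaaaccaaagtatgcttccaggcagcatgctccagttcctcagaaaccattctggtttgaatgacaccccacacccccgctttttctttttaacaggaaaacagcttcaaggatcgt
The Icosl promoter holds an NF-kB match on the minus strand that begins 111 bases before the RefSeq start, which lies past the end of the printed run, and the Pdcd1lg2 promoter holds an NF-kB match that begins 244 bases before it. The Cd80 window holds an AP-1 match that begins 42 bases before the start. No window matched the interferon-stimulated response element core or the STAT site GAS (TTCNNNGAA), and Cd274 matched none of the 4 motifs in these 250 bases. Among all 32851 promoter windows of that length, the share with a match was 7.25% for NF-kB, 6.75% for AP-1, 2.98% for the response element core and 7.02% for GAS. A match is a description of letters, and the NF-kB matches occur in a gene that rose and in a gene that fell.

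Per kilobase of exon, which is the scale on which genes can be compared, Cd274 had the highest level in unstimulated untreated wild-type macrophages, 7.73 ± 1.64 CPM per kb (SD, n = 3). Icosl (5.09 ± 0.25), Cd40 (4.07 ± 0.32), Tnfsf9 (3.92 ± 1.79), Cd86 (3.74 ± 0.18) and Cd80 (3.08 ± 0.23) followed on that scale, and Pdcd1lg2 was near the detection limit at 0.058 ± 0.060 CPM per kb. With LPS in untreated cells the spread between genes widened: Cd274 reached 374 ± 177 CPM per kb, Cd40 30.2 ± 11.7 and Tnfsf9 25.8 ± 12.1, while Cd80 stood at 1.95 ± 0.61. With OSW-1 and LPS, Cd40 at 250.4 ± 14.3 CPM per kb stood level with Cd274 at 238 ± 41.4, and Icosl reached 50.2 ± 3.45.

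Across the 10 groups, Cd40, Cd80 and Icosl shared their top group: OSW-1 with LPS averaged 853 CPM for Cd40, 58.3 for Cd80 and 232 for Icosl, each without overlap with the group next in order (191, 13.3 and 57.1 CPM). For Cd40 the other 4 LPS groups followed, all above every unstimulated group, whereas for Cd80 and Icosl LPS and unstimulated groups were interleaved and neighbours mostly overlapped. Cd86, Cd274 and Tnfsf9 were instead highest with 25HC and LPS, at 69.7, 2318 and 57.4 CPM. Only for Tnfsf9 did that group clear the next, itraconazole with LPS at 40.4 CPM. Cd274 divided into 5 LPS groups, from 750 CPM in Ch25h-/- cells upward, and 5 unstimulated groups at or below 28 CPM. Pdcd1lg2 was highest in untreated cells with LPS, at 1.78 CPM, overlapping with Ch25h-/- cells with LPS at 1.7.

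**Figure D1:**
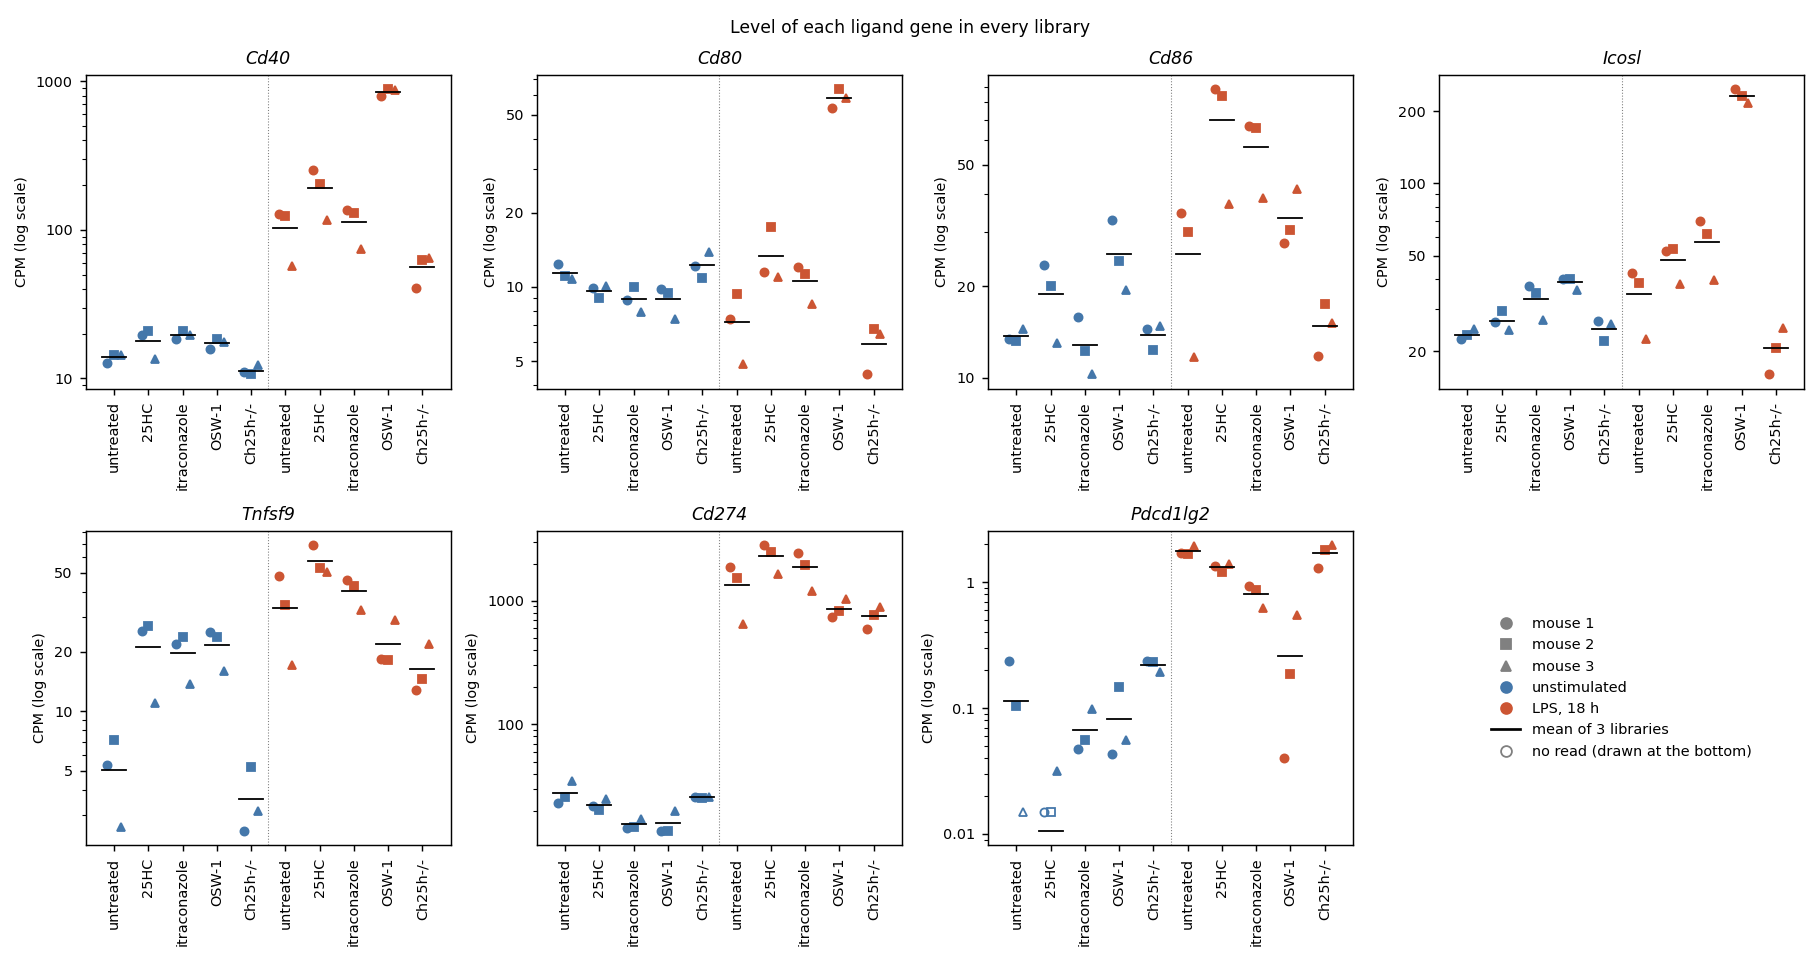
Level of each of the 7 genes in all 30 libraries, in CPM on a log axis, by pretreatment or genotype, unstimulated (blue) or after 18 h with LPS (orange), with symbols for the mouse number and bars for the mean of 3 libraries. Cd40, Cd80 and Icosl in the OSW-1 libraries with LPS lie above every other library, and Pdcd1lg2 libraries with no read are drawn as open symbols at the bottom.

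LPS raised 6 of the 7 members in untreated wild-type macrophages and lowered Cd80. The background was high, since 60.9% of 13173 tested genes passed the same test (edgeR quasi-likelihood, Benjamini-Hochberg adjusted p under 0.05), 30.8% higher and 30.1% lower. The median log2 fold change was 2.70 over the 7 members and -0.01 over all tested genes. Cd274 had 23.2, 26.1 and 34.7 CPM in mice 1, 2 and 3 without LPS and 1896, 1520 and 648 CPM with it. No LPS library came near the unstimulated ones, and mouse 3 was the lowest after stimulation. The log2 fold change was 5.60 ± 0.34 (SE), 48.4-fold, with adjusted p = 4.3e-13. Pdcd1lg2 had 10, 4 and 0 reads unstimulated and 56, 56 and 64 with LPS, so that this gene went from barely detected to about 1.78 CPM in the mean. From the summed reads, halved in the libraries that hold only even counts, the ratio was 14.4 with a 95% interval of 6.69 to 36.8 for counting error alone. The fitted log2 fold change, 3.84, was 4.90 without the unstimulated library of mouse 1, which held 10 of the 14 counts at rest.

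Cd40, the receptor for CD40 ligand, rose from 12.6, 14.5 and 14.5 CPM to 127, 125 and 57.2 CPM (log2 2.89 ± 0.28, adjusted p = 2.8e-09). Tnfsf9, whose product costimulates through CD137, rose from 5.39, 7.19 and 2.60 CPM to 48.3, 34.2 and 17.1 CPM (log2 2.70 ± 0.39, adjusted p = 1.63e-06). Neither gene's stimulated libraries overlapped the unstimulated ones, and mouse 3 was lowest after LPS in both. Within mice, the ratio of Tnfsf9 with LPS to without was 8.97, 4.76 and 6.59, whereas that of Cd40 was 10.1, 8.62 and 3.95.

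The ligands of CD28 and ICOS moved little by comparison. Cd86 had 13.5, 13.2 and 14.4 CPM unstimulated and 34.7, 30.2 and 11.7 with LPS, and Icosl had 22.4, 23.3 and 24.7 against 42.5, 38.6 and 22.6. In both genes mice 1 and 2 were higher with LPS and mouse 3 was lower (ratios of 0.813 for Cd86 and 0.913 for Icosl), so the groups overlapped. The calls (Cd86 log2 0.90 ± 0.33, adjusted p = 0.0206; Icosl log2 0.56 ± 0.20, adjusted p = 0.0189) were lost without single libraries of mice 1 or 2. The adjusted p reached 0.134 for Cd86 (log2 0.63) and 0.121 for Icosl (log2 0.39) without the LPS library of mouse 1. It was 0.0795 for Cd86 and 0.0776 for Icosl without that of mouse 2, and 0.0517 and 0.0567 without the unstimulated library of mouse 1. Leaving out the unstimulated library of mouse 2 gave 0.0547 for Cd86. Cd80 fell by 0.66 ± 0.20 on the log2 scale, from 12.4, 11.1 and 10.8 CPM to 7.44, 9.36 and 4.86 CPM, lower in 3 of 3 mice (adjusted p = 0.00572). Without the LPS library of mouse 3 the log2 fold change was -0.44 and the adjusted p 0.052.

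**Figure D2:**
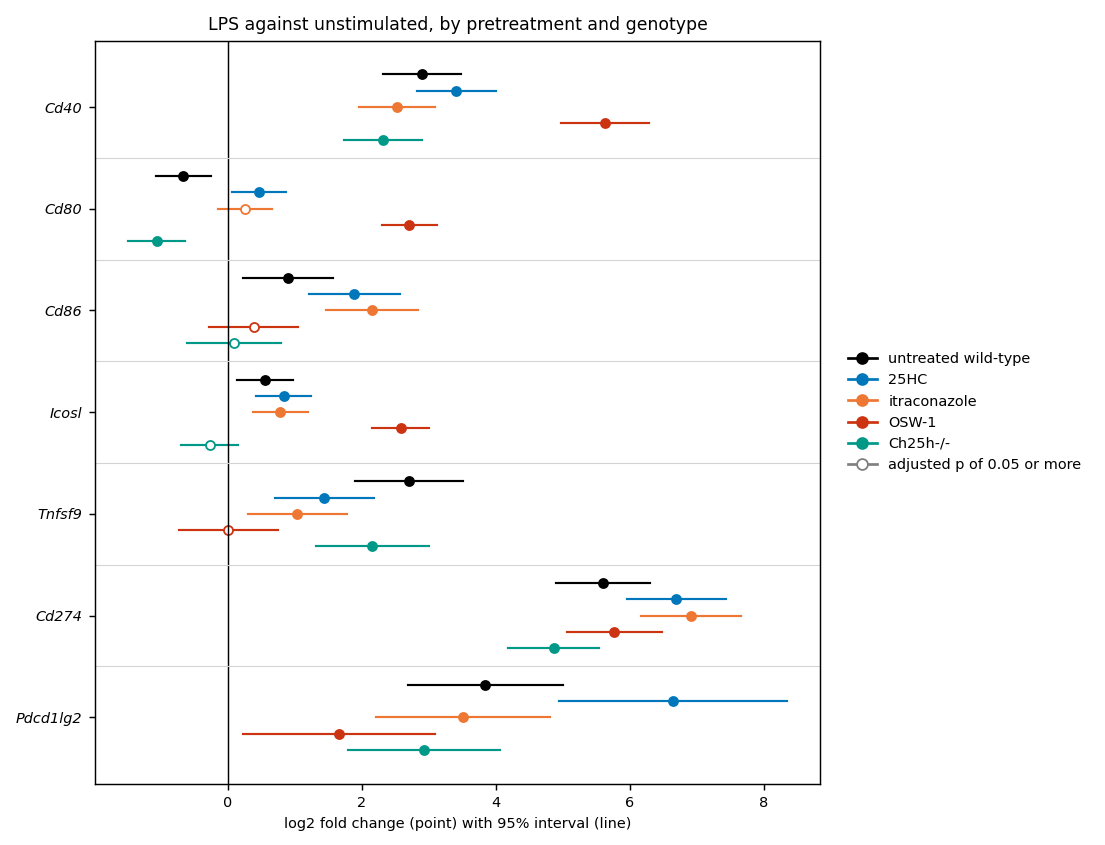
LPS against unstimulated cells for each gene, as the log2 fold change with its 95% interval, in untreated, 25HC, itraconazole and OSW-1 pretreated wild-type cells and in Ch25h-/- cells (3 libraries a group). Filled points have an adjusted p under 0.05; Cd40, Cd80 and Icosl with OSW-1 lie to the right of the other 4 conditions, and Tnfsf9 with OSW-1 lies at 0.

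In unstimulated cells, Tnfsf9 was the member that all 3 compounds raised. It had 5.39, 7.19 and 2.60 CPM in untreated cells, 25.5, 26.8 and 11 with 25HC, 21.8, 23.6 and 13.6 with itraconazole and 25.0, 23.7 and 16.0 with OSW-1. Every treated library lay above every untreated one, and mouse 3 was lowest in each of the 4 groups. The log2 fold changes were 2.05 ± 0.39 for 25HC (4.14-fold, adjusted p = 0.000276), 1.95 ± 0.38 for itraconazole (3.86-fold, adjusted p = 0.000527) and 2.08 ± 0.38 for OSW-1 (4.24-fold, adjusted p = 0.000135). These 3 comparisons share the untreated libraries. Within mice the ratios ran from 3.28 to 6.16 and were above 1 in 3 of 3 mice for each compound.

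Few other members passed in unstimulated cells. Of 7 members, 1 was higher and 1 lower with 25HC (28.7% of all tested genes were called, 15.9% higher and 12.8% lower), 1 and 1 with itraconazole (26.8%, 14.4% higher and 12.4% lower) and 3 and 1 with OSW-1 (37.3%, 20.1% higher and 17.2% lower). With 25HC and itraconazole the share of members called was close to that of all genes. Cd274 had 23.2, 26.1 and 34.7 CPM in untreated cells, 14.5, 14.7 and 17.3 with itraconazole and 13.8, 13.8 and 20.01 with OSW-1, with no overlap. It fell by 0.85 ± 0.29 on the log2 scale with itraconazole (adjusted p = 0.0312) and by 0.82 ± 0.29 with OSW-1 (adjusted p = 0.0277). Both calls were lost without the untreated library of mouse 3 (log2 -0.67 and -0.64, adjusted p = 0.156 and 0.132) and without the mouse 1 or mouse 2 library of the compound (adjusted p of 0.0959 and 0.0918 for itraconazole, 0.107 and 0.1 for OSW-1). With 25HC, Cd274 had 21.7, 20.2 and 25.1 CPM, a log2 difference of -0.32 ± 0.29 with adjusted p = 0.432.

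OSW-1 alone raised Icosl from 22.4, 23.3 and 24.7 CPM to 40.2, 40.2 and 35.9 CPM, with no overlap (log2 0.72 ± 0.20, adjusted p = 0.00597). Itraconazole gave Icosl levels of 37.5, 35.1 and 26.9 CPM, which also lay above all untreated libraries but did not pass the test (log2 0.50 ± 0.20, adjusted p = 0.0667). With the mouse as a block, which is printed here and below only where it changes a call, that difference passed (log2 0.47, adjusted p = 0.0218). Without the itraconazole library of mouse 3 it passed as well (log2 0.63, adjusted p = 0.037). Cd86 had 32.8, 24.1 and 19.4 CPM with OSW-1 against 13.5, 13.2 and 14.4 untreated (log2 0.90 ± 0.33, adjusted p = 0.0334). All OSW-1 libraries were above all untreated ones, but leaving out the OSW-1 library of mouse 1 gave log2 0.67 with adjusted p = 0.17. Leaving out that of mouse 2 gave 0.0551, and the untreated libraries of mice 1, 2 and 3 gave 0.0802, 0.0833 and 0.0667.

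Pdcd1lg2 in unstimulated cells rested on a handful of reads. The 25HC libraries held 0, 0 and 1 read against 10, 4 and 0 in untreated cells, which the fit called lower (adjusted p = 0.0299). The ratio of summed reads was 0.116, with a counting interval of 0.00257 to 0.903. Halving the even counts gave an adjusted p of 0.0748, and leaving out the untreated library of mouse 1 gave 0.236 (log2 -2.18), that of 25HC mouse 1 0.123 and that of 25HC mouse 2 0.116. Without the 25HC library of mouse 3 no read was left in that group, and the fitted log2 fold change moved from -3.25 to -5.05. Cd40 and Cd80 passed with none of the compounds in unstimulated cells (log2 0.31 to 0.50 for Cd40, -0.36 to -0.24 for Cd80) in the fit over all groups. Fitted on the compared groups only, Cd40 passed with itraconazole (adjusted p = 0.00431) and OSW-1 (0.0394), higher in 3 of 3 mice. Cd80 passed with itraconazole (0.0352) and OSW-1 (0.0481), lower in 3 of 3 mice.

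With LPS, OSW-1 split the 7 genes. Cd40, Cd80 and Icosl were 6.71 to 8.28-fold higher than in untreated cells with LPS, Pdcd1lg2 and, less firmly, Cd274 were lower, and Cd86 and Tnfsf9 did not pass. In this comparison 71.4% of all tested genes were called, 34.3% higher and 37.1% lower, so a count of 5 of 7 members is near the background. Cd40 had 127, 125 and 57.2 CPM in untreated cells and 798, 889 and 871 with OSW-1 (log2 3.05 ± 0.28, adjusted p = 4.63e-10). Cd80 had 7.44, 9.36 and 4.86 against 53.0, 63.6 and 58.4 CPM (log2 3.01 ± 0.21, adjusted p = 2.65e-12). Icosl had 42.5, 38.6 and 22.6 against 248, 232 and 216 CPM (log2 2.75 ± 0.21, adjusted p = 1.69e-11). For these 3 genes the OSW-1 libraries with LPS were close to each other and were the highest of all 30 libraries. The 3 calls held in every alternative and every omission of a library, with log2 fold changes from 2.52 to 3.24.

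The PD-1 ligands went the other way. Pdcd1lg2 had 56, 56 and 64 reads in untreated cells with LPS and 1, 5 and 16 with OSW-1, or 1.72, 1.68 and 1.95 against 0.0401, 0.187 and 0.550 CPM, without overlap. Its log2 fold change was -2.72 ± 0.53 (adjusted p = 5.96e-05), and the ratio of summed reads was 0.153 (counting interval 0.0913 to 0.246). Most OSW-1 reads came from mouse 3, and without that library the log2 fold change was -3.90. Cd274 had 1896, 1520 and 648 CPM untreated and 740, 821 and 1031 with OSW-1. Within mice 1 and 2 it was lower with OSW-1, with ratios of 0.39 and 0.54, while in mouse 3 the ratio was 1.59, and the groups overlapped. The fit called it lower (log2 -0.65 ± 0.28, adjusted p = 0.0404), but the call was lost with the mouse as a block (log2 -0.62, adjusted p = 0.0628). It was also lost without the untreated library of mouse 1 (log2 -0.34, adjusted p = 0.306) or mouse 2 (0.115) and without the OSW-1 library of mouse 1 (0.132) or mouse 2 (0.0975).

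Cd86 and Tnfsf9 showed the same contrast between mice. Cd86 had 34.7, 30.2 and 11.7 CPM untreated and 27.8, 30.5 and 41.7 with OSW-1 and LPS (log2 0.38 ± 0.32, adjusted p = 0.291), with ratios of 0.8, 1.01 and 3.56 within mice. Tnfsf9 had 48.3, 34.2 and 17.1 against 18.3, 18.1 and 28.9 CPM (log2 -0.61 ± 0.36, adjusted p = 0.131), with ratios of 0.378, 0.53 and 1.68. Without the untreated library of mouse 3, Tnfsf9 passed (log2 -0.92, adjusted p = 0.0234).

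25HC with LPS raised 4 of 7 members and lowered none, against 41.8% of all tested genes called, 20.8% higher and 21% lower. Cd86, a CD28 ligand, had 88.5, 83.6 and 37.0 CPM with 25HC and 34.7, 30.2 and 11.7 without (log2 1.45 ± 0.32, adjusted p = 0.000961). Cd80 had 11.5, 17.5 and 11 against 7.44, 9.36 and 4.86 CPM (log2 0.88 ± 0.20, adjusted p = 0.000997). Neither gene's groups overlapped, and the within-mouse ratios of Cd86 lay close together at 2.55, 2.77 and 3.15. Cd40 had 255, 203 and 116 against 127, 125 and 57.2 CPM (log2 0.89 ± 0.26, adjusted p = 0.0079), with within-mouse ratios of 2, 1.63 and 2.02 although the groups overlapped. Cd274 had 2826, 2479 and 1650 against 1896, 1520 and 648 CPM (log2 0.78 ± 0.28, adjusted p = 0.0284), higher in 3 of 3 mice.

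These last calls leaned on single libraries. Cd40 was lost without the untreated library of mouse 3 (log2 0.60, adjusted p = 0.0554) or the 25HC library of mouse 1 (log2 0.63, adjusted p = 0.0714). Cd274 was lost without the untreated library of mouse 3 (log2 0.44, adjusted p = 0.163) or the 25HC libraries of mouse 1 (0.122) or mouse 2 (0.081). Icosl (52.1, 53.3 and 38.2 CPM) and Tnfsf9 (68.8, 52.8 and 50.6 CPM) were higher with 25HC in 3 of 3 mice but did not pass (log2 0.47 and 0.79, adjusted p = 0.0582 and 0.0761). Both passed with the mouse as a block (adjusted p = 0.0116 and 0.0179) and without the untreated library of mouse 1 (0.0207 and 0.0215). Icosl also passed without the 25HC library of mouse 3 (log2 0.61, adjusted p = 0.0248).

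Itraconazole with LPS raised Cd86, Icosl and Cd80 and lowered Pdcd1lg2, 4 of 7 members against 54.4% of all tested genes, 26.5% higher and 27.9% lower. Cd86 had 67.0, 65.8 and 38.8 CPM, all above the untreated 34.7, 30.2 and 11.7 (log2 1.16 ± 0.32, adjusted p = 0.00384). Icosl had 70.1, 61.8 and 39.6 against 42.5, 38.6 and 22.6 CPM, overlapping between groups but 1.60 to 1.75-fold higher within each mouse (log2 0.73 ± 0.20, adjusted p = 0.00333). Fitted on the compared groups only, the Icosl call was lost (adjusted p = 0.0691). Cd80 had 12, 11.3 and 8.52 CPM (log2 0.55 ± 0.20, adjusted p = 0.0216). That call was lost without the untreated library of mouse 3 (log2 0.34, adjusted p = 0.155) or the itraconazole library of mouse 1 (0.0925) or mouse 2 (0.0678). Pdcd1lg2 had 30, 30 and 22 reads against 56, 56 and 64, without overlap, and a ratio of summed reads of 0.451 (counting interval 0.304 to 0.661). Its call (log2 -1.14 ± 0.46, adjusted p = 0.038) was lost when any of the 6 libraries was left out, with adjusted p from 0.0599 to 0.112. Cd40, Cd274 and Tnfsf9 did not pass with itraconazole (log2 0.14, 0.46 and 0.28); Cd274 passed without the untreated library of mouse 1 (log2 0.78, adjusted p = 0.0324) or the itraconazole library of mouse 3 (log2 0.70, adjusted p = 0.0397).

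**Figure D3:**
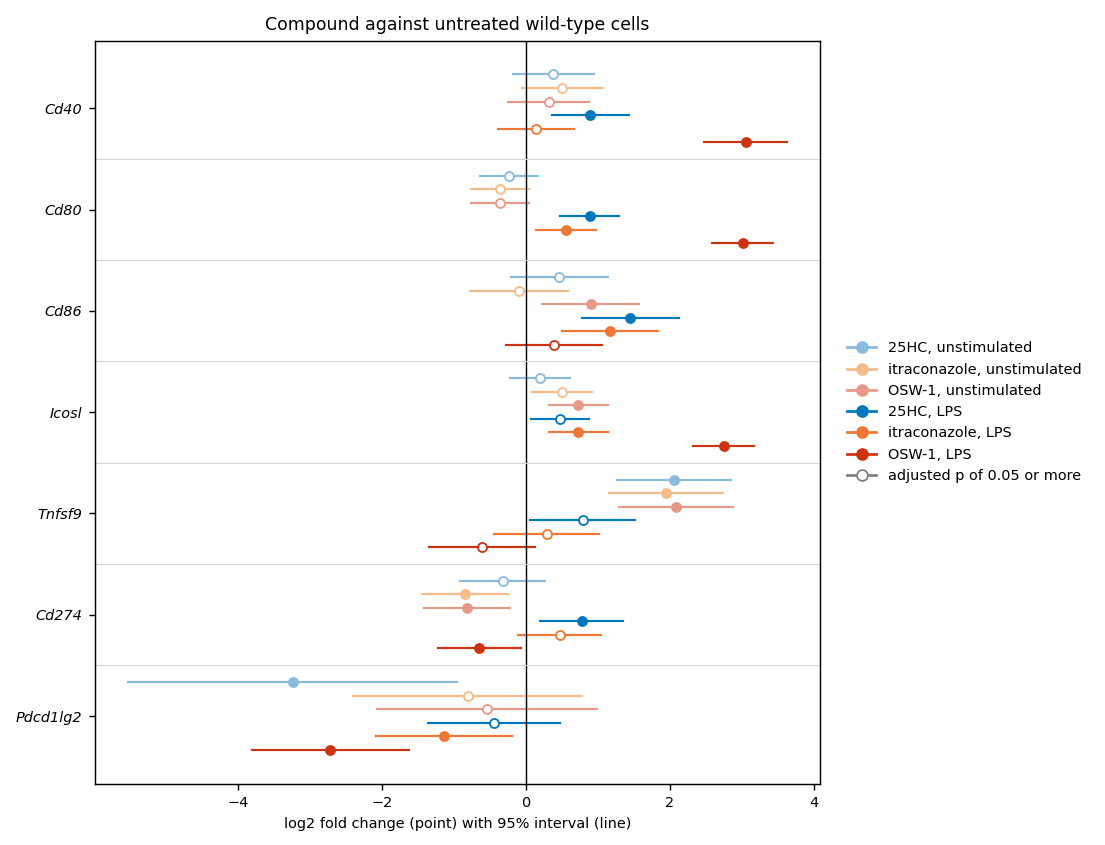
Compound against untreated wild-type cells for each gene, as the log2 fold change with its 95% interval, unstimulated (pale) and with LPS (dark), 3 libraries a group; all comparisons in one state share the same untreated libraries. Filled points have an adjusted p under 0.05, and Tnfsf9 is filled for all 3 compounds in unstimulated cells and for none with LPS.

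Because pretreatment changed both the starting level and the end point, the LPS response itself was compared between pretreated and untreated cells. OSW-1 enlarged the response of Cd40 by 2.74 ± 0.38 on the log2 scale, of Cd80 by 3.37 ± 0.28 and of Icosl by 2.02 ± 0.28 (adjusted p = 2.03e-06, 8.22e-10 and 2.06e-06), and 51.7% of all genes were called for this difference, 23.4% higher and 28.3% lower. Within mice, LPS raised Cd40 by factors of 50.7, 48.5 and 49.5 with OSW-1 against 10.1, 8.62 and 3.95 without. For Cd80 the factors with OSW-1 were 5.4, 6.72 and 7.89, against 0.601, 0.843 and 0.451 in untreated cells, so that the direction of the response differed in each mouse. Tnfsf9 showed no detectable response: with OSW-1 it had 25.0, 23.7 and 16.0 CPM unstimulated and 18.3, 18.1 and 28.9 with LPS, a log2 fold change of 0.01 with a 95% interval of -0.73 to 0.75. The difference from the untreated response was -2.69 ± 0.52 (adjusted p = 0.000142). For Pdcd1lg2 the difference of -2.18 ± 0.96 did not pass (adjusted p = 0.0601). It passed with DESeq2 (0.0226), with limma-voom and the animal as a random effect (0.00763), and without OSW-1 LPS mouse 3 (-3.36, 0.00613), untreated unstimulated mouse 1 (-3.24, 0.0137) or OSW-1 unstimulated mouse 1 (-2.51, 0.0453).

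Itraconazole gave a smaller Tnfsf9 response too, by -1.66 ± 0.52 (adjusted p = 0.0198), and larger ones for Cd274 (1.31 ± 0.40, adjusted p = 0.0176), Cd86 (1.26 ± 0.46, adjusted p = 0.0455) and Cd80 (0.92 ± 0.28, adjusted p = 0.0175), where 26.3% of all genes were called, 12.2% higher and 14.2% lower. For Tnfsf9 the call was lost without the unstimulated libraries of untreated mouse 3 (0.0584) or itraconazole mouse 2 (0.0514), or the LPS library of untreated mouse 1 (0.0691). For Cd274 it was lost without the unstimulated library of untreated mouse 3 (0.0545) or the LPS library of itraconazole mouse 1 (0.0678), and without the latter also for Cd80 (0.0536). For Cd86 it was lost in 8 of 12 omissions, with adjusted p up to 0.108. With 25HC the response of Cd80 was larger by 1.13 ± 0.28 (adjusted p = 0.0103; 12.3% of all genes called, 5.34% higher and 6.95% lower), and the other 6 members did not pass by edgeR. Among these, Cd274 passed with DESeq2 (log2 1.12, adjusted p = 0.0309), with limma-voom (0.0476) and without 25HC LPS mouse 3 (0.0339) or untreated LPS mouse 1 (0.025). Cd86 passed without 25HC LPS mouse 3 (log2 1.29, adjusted p = 0.0434), and Tnfsf9 without 25HC unstimulated mouse 3 (-1.57, 0.0389) or untreated LPS mouse 3 (-1.58, 0.0333). Cd80 itself, lower with LPS in untreated cells, was higher with LPS after 25HC (log2 0.47, adjusted p = 0.0403), a call lost without 25HC LPS mouse 2 (log2 0.22, adjusted p = 0.364) or any unstimulated 25HC library (0.0614 to 0.114). After itraconazole it did not pass (log2 0.25, adjusted p = 0.26).

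Counted over pretreatments, LPS raised 7 of 7 members after 25HC (63.9% of all genes called, 30.6% higher and 33.3% lower), 6 of 7 after itraconazole (67%, 33.4% and 33.6%) and 5 of 7 after OSW-1 (71.3%, 34.8% and 36.6%), with none lowered. After 25HC, Pdcd1lg2 went from 0, 0 and 1 read to 42, 46 and 42, and from the sums after halving even counts, 1 and 65, the ratio was 90.6 with a counting interval of 15.7 to 3630. Its fitted log2 fold change of 6.65 was 8.45 without the unstimulated library of mouse 3, the only one with a read. With itraconazole, Cd274 went from 14.5, 14.7 and 17.3 to 2448, 1952 and 1206 CPM (log2 6.91 ± 0.36, adjusted p = 1.66e-14). Tnfsf9 after itraconazole rose by 1.04 ± 0.36, a call lost without unstimulated mouse 3 (log2 0.83, adjusted p = 0.0727). Pdcd1lg2 after OSW-1 had 2, 6 and 2 reads unstimulated and 1, 5 and 16 with LPS, and its call (log2 1.66, adjusted p = 0.0354) was lost with the mouse as a block (adjusted p = 0.0555). Without the LPS library of mouse 3 its log2 fold change was 0.48 (adjusted p = 0.615), and without the unstimulated libraries of mouse 1 or 3 the adjusted p was 0.126 or 0.094.

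Between compounds, 6 pairs were compared for each gene. In unstimulated cells no member passed for 25HC against itraconazole (0.235% of all genes called), 25HC against OSW-1 (2.83%) or OSW-1 against itraconazole (6.33%) by edgeR. At an unadjusted p under 0.05 the counts were 0, 2 and 1, with DESeq2 0, 0 and 1 and with limma-voom 0, 0 and 1. For Tnfsf9, the gene raised by all 3, the log2 differences were 0.10 (95% interval -0.63 to 0.84), -0.03 (-0.77 to 0.70) and 0.14 (-0.60 to 0.87), so differences of 1.5-fold between compounds are within these intervals. Cd86 was higher with OSW-1 than with itraconazole by 0.99 ± 0.33 on the log2 scale without overlap, which missed the threshold (adjusted p = 0.0712) and passed with the mouse as a block (0.0267) or DESeq2 (0.0268). Icosl was lower with 25HC than with OSW-1 by 0.53 ± 0.20, again without overlap (adjusted p = 0.161, and 0.0468 with the block).

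With LPS, none of the 7 members passed between 25HC and itraconazole by edgeR (6.54% of all genes called; 1 member at an unadjusted p under 0.05, 1 with DESeq2 and 1 with limma-voom). That member was Cd40, at 255, 203 and 116 CPM with 25HC and 136, 130 and 73.9 with itraconazole (log2 0.76, 95% interval 0.22 to 1.29, adjusted p = 0.0789). It passed with the mouse as a block (adjusted p = 0.0344) and without the 25HC library of mouse 3 (log2 1.01, adjusted p = 0.0198). OSW-1 differed from both in 7 of 7 members, against 58.7% of genes for 25HC (30.4% higher with 25HC, 28.3% lower) and 48.6% for itraconazole (23.1% higher with OSW-1, 25.5% lower). Relative to 25HC, Cd40 was 4.46-fold, Cd80 4.37-fold and Icosl 4.84-fold higher with OSW-1, while Pdcd1lg2 was 4.85-fold, Cd274 2.68-fold, Tnfsf9 2.64-fold and Cd86 2.09-fold lower. Without OSW-1 mouse 3 the log2 difference of Pdcd1lg2 between 25HC and OSW-1 was 3.46 in place of 2.28. Relative to itraconazole the same 3 were higher by 7.54, 5.50 and 4.06-fold, and Pdcd1lg2, Cd274, Tnfsf9 and Cd86 lower by 2.99, 2.16, 1.86 and 1.71-fold. The weakest of these, Cd86 and Tnfsf9 against itraconazole (adjusted p = 0.0476 and 0.0427), were lost without the mouse 1 or 2 library of either group (adjusted p of 0.127 to 0.155 and 0.0926 to 0.138). Pdcd1lg2 against itraconazole (log2 -1.58, adjusted p = 0.0188) was lost without OSW-1 mouse 1 (log2 -1.11, adjusted p = 0.106) or mouse 2 (0.0792), and without OSW-1 mouse 3 its log2 difference was -2.76, against -1.58.

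In Ch25h-/- macrophages no member passed against wild-type cells by edgeR, at rest (0.00759% of all genes called) or with LPS (0.228%). At an unadjusted p under 0.05 the counts were 0 at rest and 5 with LPS; DESeq2 called 0 and 1 (Icosl, log2 -0.72, adjusted p = 0.0328) and limma-voom 0 and 0. With LPS, Cd40 had 40.9, 62.9 and 64.9 CPM in Ch25h-/- and 127, 125 and 57.2 in wild-type cells (log2 -0.87, 95% interval -1.41 to -0.33, adjusted p = 0.127). Cd274 had 589, 762 and 898 against 1896, 1520 and 648 CPM (log2 -0.85, -1.43 to -0.28, adjusted p = 0.144). Icosl had 16.0, 20.7 and 25.1 against 42.5, 38.6 and 22.6 CPM (log2 -0.74, -1.16 to -0.32, adjusted p = 0.0964). In each case wild-type mice 1 and 2 lay above all Ch25h-/- libraries and wild-type mouse 3 lay among them. These comparisons also cross the difference in even counts, which cannot be told apart from genotype.

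Without the wild-type LPS library of mouse 3, 5 members were called lower in Ch25h-/- cells: Tnfsf9 (log2 -1.33, adjusted p = 0.0122), Cd274 (-1.19, 0.00192), Cd40 (-1.16, 0.0023), Cd86 (-1.13, 0.0128) and Icosl (-0.97, 0.0014). Removing that library leaves 2 wild-type libraries that share a high level, and which of the 3 is typical was not tested. Within Ch25h-/- cells, LPS raised Cd274 (4.87 ± 0.33), Pdcd1lg2 (2.92 ± 0.55), Cd40 (2.32 ± 0.28) and Tnfsf9 (2.16 ± 0.41) and lowered Cd80 (-1.06 ± 0.21), 5 of 7 members against 57.2% of genes, 28% higher and 29.2% lower. Cd86 and Icosl did not pass there (log2 0.10 and -0.27). The difference in LPS response between genotypes passed in no member (edgeR, with 0% of all genes called; 1 member at an unadjusted p under 0.05, 0 with DESeq2 and 0 with limma-voom). Without the wild-type LPS library of mouse 3 the response of Icosl passed (log2 -1.06, adjusted p = 0.0193).

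Over the 10 group means of log2 CPM, the pairs of members most alike were Cd80 and Icosl (Pearson r = 0.884), Cd274 and Pdcd1lg2 (0.86), Cd40 and Cd274 (0.839) and Cd40 and Icosl (0.824). The values for Cd80 with Pdcd1lg2 (-0.231) and for Pdcd1lg2 with Icosl (0.00015) were at the other end. These are descriptions over groups that share mice and processing. Among genes with an average log2 CPM of at least 2, the 3 closest to Cd80 were Rel (0.972), Appl1 (0.971) and Fopnl (0.964). Those closest to Icosl were Reps1 (0.992), Pus3 (0.986) and Nfkb1 (0.981), and to Tnfsf9 Traf3 (0.974), Asf1a (0.968) and Usp6nl (0.967). Rel and Nfkb1 encode NF-kB subunits and Traf3 an adaptor of CD40 and its relatives. Cd40 was closest to Ubxn8 (0.992), Cd274 to Usb1 (0.998), Cd86 to Phf13 (0.980) and Pdcd1lg2 to C130026I21Rik (0.989). Such values are common here: 826 of 10065 genes had r over 0.9 with Cd274, 726 with Cd40 and 422 with Icosl, against 54 with Cd80 and 87 with Tnfsf9.

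Other costimulatory and coinhibitory ligands, 18 tested of 22 listed, gave 4 higher and 11 lower with OSW-1 and LPS than in untreated cells with LPS, and a median log2 fold change of -0.87 (all genes -0.06). Over all genes 34.3% were higher and 37.1% lower in that comparison, and 30.8% and 30.1% with LPS in untreated cells. Tnfrsf14 (log2 -2.03 ± 0.18), whose product HVEM binds BTLA, Pvrl2 (-2.0 ± 0.14), which encodes nectin-2, and Cd48 (-1.20 ± 0.10) fell. Tnfsf15 (2.32 ± 0.47), Pvr (1.45 ± 0.13), which encodes the ligand of CD226 and TIGIT, and Icam1 (0.61 ± 0.13) rose, as Cd40, Cd80 and Icosl did. With 25HC and LPS 3 of the 18 were higher and 7 lower, and with itraconazole and LPS 2 and 8. The shares of all genes were 20.8% higher and 21% lower with 25HC and LPS, and 26.5% and 27.9% with itraconazole and LPS. LPS in untreated cells raised 10, among them Pvrl2 (2.61 ± 0.14) and Pvr (2.08 ± 0.14), and lowered 6, among them Tnfsf14 (-1.83 ± 0.29). In unstimulated cells 3 were higher and 4 lower with 25HC, 4 and 5 with itraconazole and 4 and 4 with OSW-1, which raised Cd276 (2.25 ± 0.28), the gene for B7-H3. Of all genes 15.9%, 14.4% and 20.1% were higher and 12.8%, 12.4% and 17.2% lower with these compounds in that order.

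The CD40 signalling list holds 12 genes, all tested. LPS in untreated cells raised 11 of 12, against 30.8% of all genes, and OSW-1 with LPS gave 7 higher and 3 lower, against 34.3% and 37.1%. With OSW-1 and LPS, Nfkb2 (log2 2.27 ± 0.16), the precursor of the non-canonical NF-kB subunit, and Traf1 (2.33 ± 0.34), an adaptor of TNF receptors, were raised together with Cd40. Traf5 (-1.81 ± 0.21) and Traf3 (-0.35 ± 0.08) fell. The same pair of genes was raised by 25HC (Nfkb2 1.06 ± 0.15, Traf1 1.71 ± 0.33) and itraconazole (1.17 ± 0.15 and 1.63 ± 0.33) with LPS, where 4 of 12 and 7 of 12 were higher and 0 and 2 lower. The shares of all genes there were 20.8% and 26.5% higher and 21% and 27.9% lower. In unstimulated cells 4 were higher and 1 lower with 25HC, 3 and 0 with itraconazole and 7 and 1 with OSW-1, with Traf1 at 2.38 ± 0.35 in the last. Of all genes 15.9%, 14.4% and 20.1% were higher and 12.8%, 12.4% and 17.2% lower with these compounds in that order.

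Interferon receptors and STAT pathway genes, which control Cd274 in many cells, were higher with LPS in 14 of 15 in untreated cells, with Socs1 at 4.05 ± 0.19 and Jak2 at 3.65 ± 0.14. Of all genes 30.8% were higher in that comparison. With OSW-1 and LPS 1 of 15 was higher and 9 lower than in untreated cells with LPS (median log2 -0.78). The 10 called are a smaller share than the 71.4% of all genes called there. By direction, 34.3% of all genes were higher and 37.1% lower, so the list had a smaller share higher and a larger share lower. Ifnar2 (-1.37 ± 0.12) and Ifnar1 (-1.33 ± 0.12) fell, while Jak2 (0.47 ± 0.12) rose. With 25HC and LPS 4 were higher and 3 lower, and with itraconazole and LPS 2 and 5. The shares of all genes were 20.8% higher and 21% lower with 25HC and LPS, and 26.5% and 27.9% with itraconazole and LPS. In unstimulated cells 7 of 15 were lower with each compound, against 2, 2 and 5 higher (over all genes 12.8%, 12.4% and 17.2% were lower and 15.9%, 14.4% and 20.1% higher with 25HC, itraconazole and OSW-1), with Stat2 at -1.82 ± 0.19 with OSW-1.

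Among 9 genes for turnover of these proteins at the surface, March1, a ubiquitin ligase that removes CD86 from the surface, and Cd83, which counters that ligase, moved in opposite directions with LPS in untreated cells and with OSW-1 and LPS. LPS in untreated cells raised March1 (2.73 ± 0.37) and lowered Cd83 (-2.25 ± 0.48), in all 4 of 9 higher and 1 lower, where 60.9% of all genes were called. With OSW-1 and LPS 3 were higher and 3 lower than in untreated cells with LPS, where 71.4% of all genes were called: March1 fell from 276 ± 15.7 to 13.7 ± 12.1 CPM (log2 -4.33 ± 0.40), and Cd83 rose from 13.2 ± 9.12 to 124 ± 28.9 CPM (3.24 ± 0.49). Neither of them passed with 25HC or itraconazole and LPS. March1 was at log2 -0.83 (adjusted p = 0.0557) and -0.63 (0.127) there, and Cd83 at 1.14 (0.0527) and 0.53 (0.35). Of the 9 genes 2 were higher and 2 lower with each of these compounds. The shares of all genes were 20.8% higher and 21% lower with 25HC and LPS, and 26.5% and 27.9% with itraconazole and LPS. In unstimulated cells 1, 0 and 1 were higher and 3 each lower with 25HC, itraconazole and OSW-1. Of all genes 15.9%, 14.4% and 20.1% were higher and 12.8%, 12.4% and 17.2% lower in those cells. There March1 fell with each compound (log2 -1.04, -1.04 and -1.09), and Cd83 did not pass (-0.63, -0.45 and -0.26). Cmtm6, whose product protects PD-L1 from degradation, was lower by 0.27 ± 0.08 with OSW-1 and LPS. It was also lower with itraconazole and LPS (log2 -0.24, adjusted p = 0.0145), but did not pass with 25HC and LPS (-0.18, 0.0883). Cmtm6 was lower in unstimulated cells with 25HC, itraconazole and OSW-1 as well (log2 -0.32, -0.28 and -0.28).

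Of the 6 listed genes for T cell partners of the members 3 were tested. Tnfrsf9, the gene of CD137, rose with LPS in untreated cells (7.05 ± 0.76, from 0.0836 to 12.2 CPM in the mean) and was lower with OSW-1 and LPS (-2.0 ± 0.51). The latter groups overlapped, at 1.04 to 6.64 CPM with OSW-1 and LPS and 6.32 to 19.4 in untreated cells with LPS. Cd28 fell with LPS, from 183 ± 16.9 to 13.1 ± 3.97 CPM (-3.80 ± 0.21), and was lower still with OSW-1 and LPS (-3.25 ± 0.26). It was at 6.69 ± 0.477 CPM with 25HC and LPS and 3.44 ± 0.997 with itraconazole and LPS, without overlap with untreated cells. In unstimulated cells Cd28 was at 79.4 ± 21.3 CPM with 25HC, 35.4 ± 1.01 with itraconazole and 39.9 ± 7.06 with OSW-1. Icos fell with LPS by 3.70 ± 0.86 from under 1 CPM. Ctla4, Pdcd1 and Cd40lg had no read in any LPS group.

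Markers of cell identity moved with the OSW-1 result, and several also moved with 25HC or itraconazole and LPS. The summed level of the 9 macrophage markers was 10300 to 13000 CPM with OSW-1 and LPS, against 25200 to 36600 in untreated cells with LPS and 18000 to 36600 over the other 9 groups. That sum was 18400 to 23900 CPM with 25HC and LPS and 19800 to 32800 with itraconazole and LPS. With OSW-1 and LPS 1 of 9 was higher and 8 lower than in untreated cells with LPS, against 34.3% and 37.1% of all genes. Cd14 was the higher one, at 4884 ± 328 against 908 ± 110 CPM. Mertk stood at 1.79 ± 0.56 against 89.4 ± 21.8 CPM and Cd68 at 125 ± 10.6 against 1377 ± 323. Spi1 changed less, at 374 ± 9.06 against 443 ± 42.9 CPM. Lyz2, the largest part of the sum in untreated cells with LPS, was at 1850 ± 781 against 15310 ± 5101. Mertk was also at 37.6 ± 5.30 CPM with 25HC and LPS and 21.5 ± 7.74 with itraconazole and LPS. Of 8 dendritic cell markers 3 were tested. Ccr7, a receptor that also marks activated migratory dendritic cells, was at 43.6 ± 13.4 CPM with OSW-1 and LPS against 1.36 ± 0.44 in untreated cells with LPS. It was at 6.06 ± 2.44 CPM with 25HC and LPS and 4.87 ± 1.26 with itraconazole and LPS. Zbtb46 was at 1.47 ± 0.615 CPM with OSW-1 and LPS against 0.304 ± 0.123 in untreated cells with LPS, without overlap. With OSW-1 and LPS Flt3 was near 0 (0.125 ± 0.031 CPM), and Cd209a and Siglech were at 0. The summed level of the 8 was 40.8 to 92.1 CPM there against 21.1 to 26.5 in untreated cells with LPS and 31.8 to 53.6 without, and reached 183 in unstimulated itraconazole cells. Itgax was at 18.1 ± 13.1 CPM with OSW-1 and LPS against 22.0 ± 2.74 in untreated cells with LPS. The higher sum with OSW-1 and LPS therefore came mainly from Ccr7. In unstimulated itraconazole cells Itgax alone reached 182 CPM, so the sum reflects different genes in different groups. The sum of 5 B cell markers was 0.521 to 2 CPM with 25HC and LPS and 0.373 to 1.83 with itraconazole and LPS. With OSW-1 and LPS it was 0.161 to 0.722 CPM against 5.41 to 9.42 in untreated cells with LPS. That of 7 neutrophil markers was 1.95 to 3.89 against 6.42 to 12.8, that of 5 fibroblast markers 1.27 to 2.29 against 5.41 to 11.3, and that of 5 T cell markers 1 to 1.58 against 0.79 to 4.55. The sum of 5 mast cell and basophil markers was 3.45 to 5.95 CPM against 0.246 to 0.78, with Kit at 4.53 ± 1.32 against 0.40 ± 0.33, while Cpa3, Mcpt8 and Ms4a2 were at 0 in both groups. The part of these shifts in the levels of Cd40, Cd80 and Icosl was not tested.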

How the data were processed

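RNA of 30 libraries was measured as gene counts deposited by the authors as 1 table of 30538 genes. Per the submitters' processing notes, the tools were FastQC 0.11.9, GSNAP, featureCounts of Subread 1.5.2 and edgeR 3.26.8, with GRCm38; the strand setting is not given in the sources used here. Groups and mouse numbers came from the labels. Counts were normalized with TMM and filtered by filterByExpr (minimum count 10), and 13173 genes were fitted with 10 group means by edgeR's quasi-likelihood test, adjusted by Benjamini-Hochberg over all of them within each of 23 comparisons. The SE is the log2 fold change divided by the root of its F. CPM used TMM library sizes and CPM per kb the union of GENCODE vM21 exons, which matched 30126 identifiers. Within a genotype, libraries with the same number come from the same mouse by the labels, and 24 of 24 wild-type libraries deviated most like those of their own number, with a median r of 0.0865 within animals and -0.0441 between. The members and lists were chosen with earlier results of these data known. Genes named are the members, Ch25h, the 3 genes most like each member, and up to 3 genes per list and direction with the smallest p. A listed gene that is not reported here enters the counts and medians of its list only. Alternatives were other normalization, no filter, a mouse block, halved counts, DESeq2, limma-voom treating mice as random, compared groups only and each library left out. The fit was tested on simulated data. Fits ran in R 4.3.3 under edgeR 4.0.16, and alternatives under DESeq2 1.42.0 and limma 3.58.1; sequences and figures were handled in Python 3.11.15 by way of matplotlib 3.10.9.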

Additional observations from a re-analysis of the deposited data

Results flagged for a closer look

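The LPS response differed from that of untreated wild-type cells, by an interaction term in the edgeR fit, in 9 instances among the members. With OSW-1 the differences on the log2 scale were 2.74 for Cd40, 3.37 for Cd80, 2.02 for Icosl and -2.69 for Tnfsf9. With itraconazole they were 0.92 for Cd80, 1.26 for Cd86, 1.31 for Cd274 and -1.66 for Tnfsf9, and with 25HC 1.13 for Cd80. All 9 share the untreated libraries, in which mouse 3 had the lowest ratio of LPS to unstimulated level for Cd40, Cd80, Cd86, Cd274 and Icosl, but not for Tnfsf9. Removing wild-type mouse 3 throughout, an alternative chosen after seeing the data, gave 19 such calls in place of 9 over all 4 comparisons of LPS responses. Among those gained were Tnfsf9 with 25HC (-1.5, adjusted p = 0.00294) and Cd86 with OSW-1 (-1.26, adjusted p = 9.66e-05).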

How the results depend on the processing

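Over 161 pairs of member and comparison no called value changed sign. Other size factors changed no call, no filter and halved counts 1 each, DESeq2 7 and limma-voom 11. Calls among the members numbered 30 for LPS, 8 for compounds in unstimulated cells, 13 for compounds with LPS, 14 for compound pairs, 0 for genotype and 9 for differences of LPS responses. Leaving out 1 library gave 28 to 30, 5 to 9, 10 to 14, 11 to 15, 0 to 5 and 6 to 11, where the 5 calls for unstimulated compounds came without untreated mouse 3 and the 5 for genotype without untreated LPS mouse 3. Fitting compared groups only changed more calls than any other planned setting with all libraries: 12 were lost and 7 gained of 153 values. Among compounds with LPS it lost Cd40 and Cd274 with 25HC, Cd80 and Icosl with itraconazole, and Cd274 with OSW-1 (adjusted p of 0.0691 to 0.153). Among LPS responses it lost Cd86 and Icosl in untreated cells and Cd80 after 25HC (0.0565 to 0.0601). Pdcd1lg2 for OSW-1 against itraconazole with LPS was lost too (0.0805). So were the differences of LPS response with itraconazole for Cd274 (0.0707), Cd86 (0.0736) and Tnfsf9 (0.0506). That setting gave 8 calls for compounds with LPS but 12 for compounds in unstimulated cells. Removing wild-type mouse 3 throughout, chosen after seeing the data, gave 19 differences of LPS responses and 5 genotype calls, and DESeq2 gave 1 genotype call; the cause was not tested. With the mouse as a replicate block the counts were 29, 9, 14, 17 and 9; 2 calls were lost and 6 gained, as given above, and the block changed no other call. Genotype could not be fitted with the block, since each mouse has 1 genotype. Depth limits Pdcd1lg2, which had at most 10 counts in any unstimulated library.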
